A study of Mus musculus with 10 samples.

Results

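The genes described here are the amino acid transporter families of the solute carriers, taken as every protein-coding gene whose symbol begins with Slc1a, Slc3a, Slc6a, Slc7a, Slc36a, Slc38a or Slc43a. They are 64 of the 41388 genes counted in the livers of 10 mice, of which 21474 are protein coding in the annotation of GRCm38. A gene was called expressed when its deposited CPM, its reads scaled to the total counted in that liver, exceeded 1 in at least 1 liver. This held for 31 of the 64 genes, and all 31 were among the 13444 genes tested. The other 33 did not exceed 1 CPM in any liver, and 7 of these had no count at all. Choosing by symbol also took in carriers of creatine, betaine, GABA, taurine, monoamines and nucleobases, and Slc7a6os, a neighbour of Slc7a6 that does not encode a transporter.

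All mice were C57B/6J littermates of about 12 weeks, and each gave 1 liver RNA library. The 3 WT fasting mice and the 5 NAMPT LKO fasting mice were fasted for 24 h on aspen bedding, and the 2 WT refed mice were fasted for 22 h and then given food for 2 h. By the study's methods WT mice are Nampt fl/fl without Cre, and NAMPT LKO mice carry the same floxed alleles with Albumin-cre, which removes the gene in hepatocytes and leaves it in the other cells of the liver. The paper describes a shorter fast and random-fed controls for its transcriptome comparison, so the feeding state is given here as the sample labels have it. No NAMPT LKO refed mice were analysed here, so how deletion alters the response to fasting was not testable as an interaction, and the labels do not say which mice shared a litter.

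Solute carriers of these families move amino acids across the hepatocyte membrane and across the membrane of the lysosome. SLC38 carriers couple neutral amino acids such as alanine and glutamine to sodium, SLC1 carriers move glutamate or exchange neutral amino acids, and CAT proteins of SLC7 carry arginine, lysine and ornithine. The remaining SLC7 proteins are grouped as light chains, most of which reach the surface joined to an SLC3 heavy chain. In fasting the liver takes up alanine, glutamine and other amino acids released by muscle and uses them for gluconeogenesis and urea synthesis.

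Total counts ranged from 30603080 to 43434139 per liver, so that a gene with no count has an upper limit of 0.0691 to 0.098 CPM (3 counts; counting error only). Nampt, the targeted gene, measured 63.2, 69.7 and 143 CPM in the WT fasting livers and 12.0 to 13.9 CPM in the 5 NAMPT LKO fasting livers, and the log2 fold change was -2.81 (SE 0.22, adjusted P = 0.00102, edgeR quasi-likelihood test). One NAMPT LKO library, mouse 5, stood apart, with 21.1% of its counts on mitochondrial genes against 7.42% to 12.9% in the other 9, and with CPM that ran lower the higher a gene's GC content (Spearman rho -0.587 over 13369 genes, against -0.0367 to 0.268 in the others). It was the lowest of the 10 libraries for 40.7% of the genes tested. Hepatocyte markers were high in every library, with a summed level of 60974 to 95257 CPM for 6 genes. Summed cholangiocyte markers (5 genes) were 34.6 to 51.0 CPM in NAMPT LKO fasting livers and 15.2 to 23.1 CPM in both WT groups, and summed Kupffer cell and macrophage markers (5 genes) were highest in WT fasting mouse 3, at 218 CPM against 88.8 to 191 CPM elsewhere. Summed periportal hepatocyte markers (6 genes) were 5257 and 6268 CPM in WT refed, 8515 to 8952 CPM in WT fasting and 6031 to 8770 CPM in NAMPT LKO fasting livers. Of these, Gls2, Hal, Sds and Ass1 are also in the catabolism list below. Summed pericentral hepatocyte markers (5 genes, without Slc1a2) were 10294 and 9523 CPM, 9744 to 13561 CPM and 8791 to 12429 CPM in the same order. The periportal sum thus moved with feeding in WT mice as some carriers below did. The part of either list in those results was not tested. In whole liver, fewer cells of a type and less RNA per cell cannot be told apart.

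Levels were first compared between genes, on deposited RPKM, which divides CPM by exonic length in kilobases. Slc38a4, the system A carrier SNAT4, was highest, with a mean of 244 RPKM over the 10 livers (range 161 to 277). Slc38a3, the system N glutamine carrier SNAT3, followed at 196 RPKM (133 to 232), and the ranges of these 2 genes overlapped. These means weigh 8 fasting and 2 refed livers, and in WT refed livers the order was the reverse, with Slc38a3 at 212 ± 1.63 RPKM and Slc38a4 at 170 ± 12.6 RPKM (SD, n = 2). Slc7a2, the cationic amino acid carrier CAT2, averaged 63.5 RPKM (19.9 to 87.3), wholly below Slc38a3 and the only break in the order, since each later gene overlapped the next over the 10 livers. In WT refed livers it averaged 21.7 RPKM, below Slc6a13 at 50.1 RPKM. Then came Slc6a13, a GABA and taurine carrier, at 45.3 RPKM, Slc38a2, the SNAT2 carrier, at 24.0 RPKM, and Slc6a12, the betaine carrier, at 18.9 RPKM. Slc38a10, a less studied SLC38 protein, Slc1a2, the glutamate carrier of pericentral hepatocytes, Slc6a6, the taurine carrier, and Slc3a2, the main heavy chain, lay between 14.2 and 15.9 RPKM. From Slc7a6os down, the 21 other expressed genes lay between 0.123 and 9.99 RPKM.

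**Figure D1:**
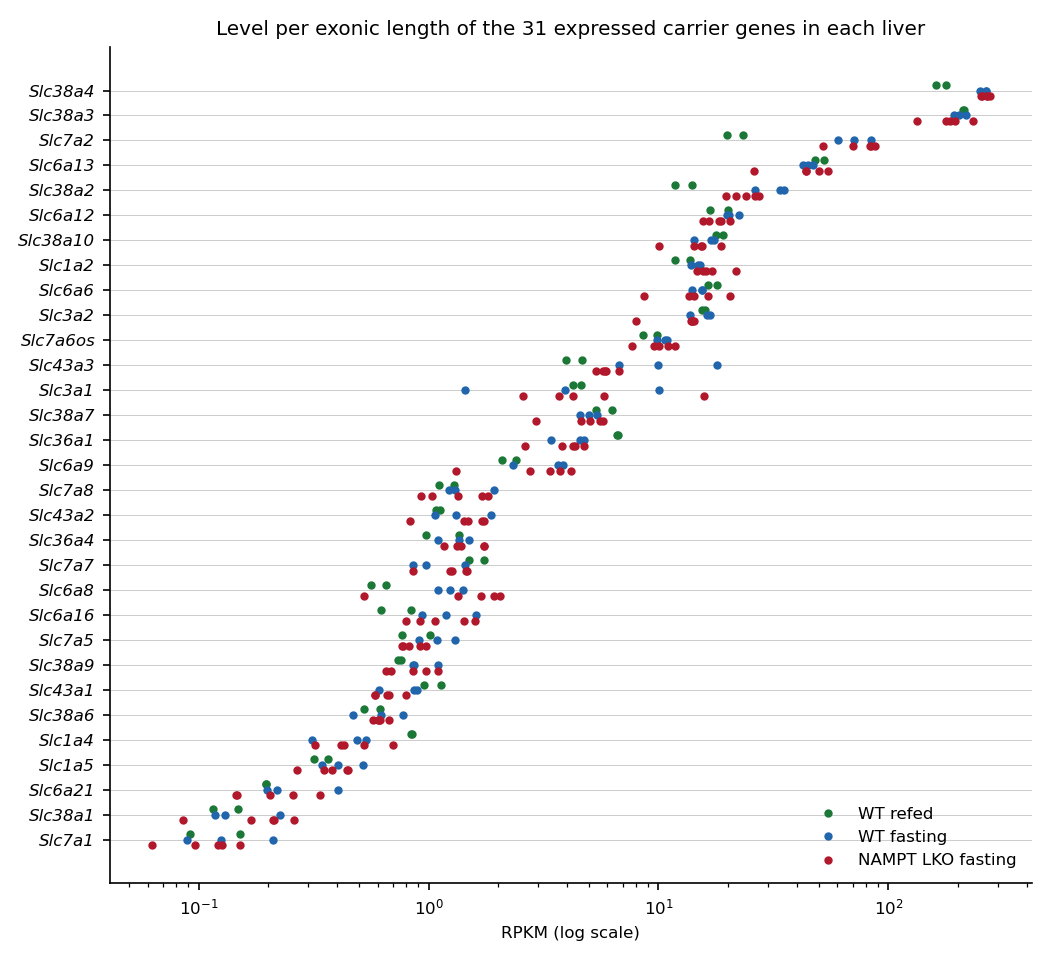
Deposited RPKM of the 31 expressed genes in each of the 10 livers, on a log axis, ordered by the mean over livers, with 1 point per liver coloured by group. Slc38a4 and Slc38a3 lie above all others, at 133 to 277 RPKM, and Slc7a1 is last, with a mean of 0.123 RPKM.

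By family, 8 of 11 SLC38 carriers were expressed, 3 of 7 SLC1 carriers (Slc1a2, Slc1a4 and Slc1a5), both SLC3 heavy chains, all 3 SLC43 carriers and 2 of 4 SLC36 carriers (Slc36a1 and Slc36a4). Of the 5 SLC7 cationic carriers Slc7a2 and Slc7a1 were expressed, with means of 63.5 and 0.123 RPKM. Of the 10 SLC7 light chains 3 were expressed, namely Slc7a8 at 1.37 RPKM, Slc7a7 at 1.28 RPKM and Slc7a5, the leucine exchanger LAT1, at 0.935 RPKM. Their heavy chain Slc3a2 stood at 14.2 RPKM. Its ratio to the summed RPKM of Slc7a5, Slc7a6, Slc7a7, Slc7a8, Slc7a10 and Slc7a11 was 3.88 ± 0.58 (SD, n = 10). Slc7a11, the cystine carrier, reached at most 0.273 CPM, and Slc7a9, the partner of the heavy chain Slc3a1 in kidney, at most 0.0654 CPM. Slc3a1 itself averaged 5.63 RPKM. The SLC6 amino acid carriers were nearly all silent, with 1 of 10 expressed, the glycine carrier Slc6a9 at 2.97 RPKM. Slc6a19, the neutral amino acid carrier of gut and kidney, reached at most 0.139 CPM. The expression threshold was not close to many genes. Slc6a21, Slc7a1 and Slc1a5 lay just above it, at highest values of 1.56, 1.59 and 2.15 CPM, and Slc7a4, Slc6a4 and Slc1a3 just below, at 0.795, 0.719 and 0.714 CPM. The 7 genes with no count were Slc6a3, Slc6a5, Slc6a11, Slc6a14, Slc6a15, Slc6a18 and Slc38a8.

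Summed over the 64 genes, the level was 2514 and 2472 CPM in the 2 WT refed livers, 3227 to 3600 CPM in the 3 WT fasting livers and 3042 to 3496 CPM in the 5 NAMPT LKO fasting livers. Every fasting liver thus lay above both refed livers, and the fasting groups overlapped. Slc38a4, Slc38a3 and Slc7a2 held 64.8% to 74.6% of these counts in each liver, a share that also reflects their length. Without these 3 genes the sum was 877 ± 8.38 CPM in WT refed (SD, n = 2), 985 ± 80.2 CPM in WT fasting (SD, n = 3) and 923 ± 85.8 CPM in NAMPT LKO fasting livers (SD, n = 5). Slc7a2 alone made up 7.24% and 8.65% of the counts in the refed livers and 15.3% to 26.2% in the fasting livers.

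**Figure D2:**
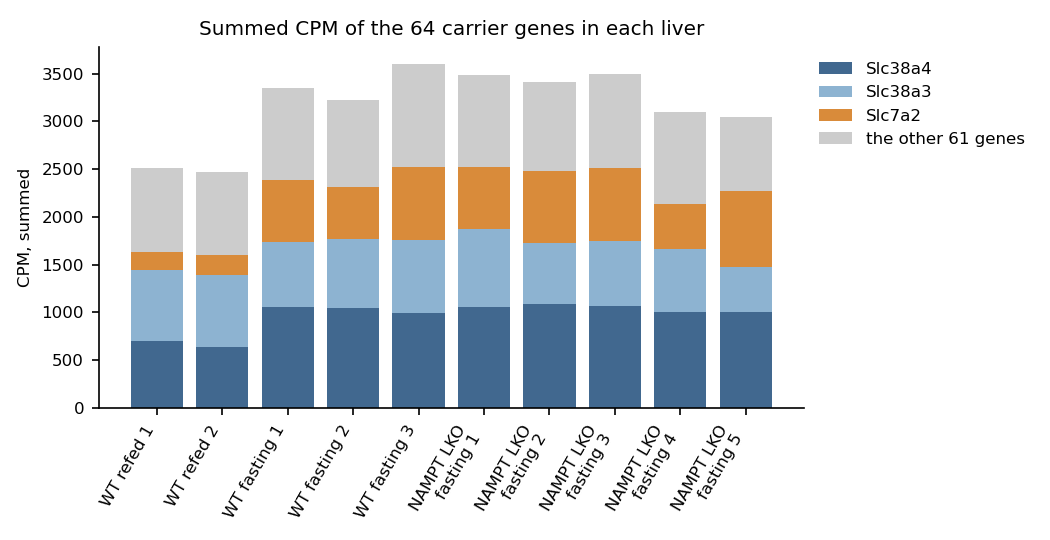
Summed CPM of the 64 genes in each liver, stacked for Slc38a4, Slc38a3, Slc7a2 and the other 61 genes. The 8 fasting livers reach 3042 to 3600 CPM and the 2 refed livers 2472 and 2514 CPM, and the Slc7a2 segment is smallest in the refed livers.

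The first comparison, WT fasting vs. WT refed, sets a continued fast against a fast ended by 2 h of food in mice with intact Nampt. Both groups had been fasted, and no mice that were never fasted were analysed here, so the difference is that of refeeding. Slc7a2, Slc43a3, Slc38a2 and Slc38a4 were higher in fasting livers, by 3.44-fold, 2.77-fold, 2.55-fold and 1.60-fold. These were 4 of the 31 genes tested, against 7.04% of all genes tested (2.68% higher and 4.36% lower in fasting livers), and 0 of the 31 were called lower. With edgeR's exact test, DESeq2 and limma's voomWithQualityWeights the count was 4, 6 and 9 of 31, against 8.91%, 12.2% and 24.8% of all genes. Folds and tests are from TMM-normalised counts (edgeR quasi-likelihood test, Benjamini-Hochberg adjustment over 13444 genes, adjusted P at or under 0.05), and the values by liver are deposited CPM. The median log2 fold change of the 31 genes was 0.26, against 0.04 for all genes tested. Above 0 were 23 of the 31 genes and 7209 of all 13444. At an unadjusted P under 0.05, 8 of the 31 genes and 22.3% of all genes passed. The 3 fasting livers did not overlap the 2 refed livers for 17 of the 31 genes, 10 of them higher and 7 lower, against 49.0% of all genes (19.4% higher and 29.6% lower). By family, the calls were 2 of 8 SLC38 carriers, 1 of 3 SLC43 carriers and 1 of 2 SLC7 cationic carriers, and none of the SLC1, SLC3, SLC6, SLC36 or SLC7 light chain genes was called by the quasi-likelihood test. DESeq2 also called Slc36a1 and Slc6a8, and voomWithQualityWeights called these 2 and Slc1a4, Slc6a16 and the light chain Slc7a7. The 3 light chains ranged from -0.52 to 0.37 on the log2 scale.

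Slc38a2 encodes SNAT2, a sodium-coupled carrier of alanine and other small neutral amino acids whose transcription is known to rise when cells lack amino acids. It measured 65.0 and 54.4 CPM in the refed livers and 156, 121 and 162 CPM in the WT fasting livers. All 3 fasting livers lay above both refed livers, and the log2 fold change was 1.35 (SE 0.15, adjusted P = 0.000984). This call held in each of the 21 fits made, at log2 fold changes of 1.22 to 1.47.

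Slc38a4, an imprinted gene in the mouse and the highest of these carriers in the fasting groups by mean RPKM, measured 705 and 635 CPM in the refed livers and 1054, 1047 and 991 CPM in the WT fasting livers. The groups were well apart and the log2 fold change was 0.68 (SE 0.13, adjusted P = 0.0105). With only 1 refed liver left in the fit it was not called, at 0.74 without refed mouse 1 (adjusted P = 0.0753) and 0.60 without refed mouse 2 (adjusted P = 0.163). Slc38a4 and Slc38a2 lie on the minus strand of chromosome 15, at 96994823 to 97055956 and 96687394 to 96699698 of GRCm38, with 295125 bases and no protein-coding gene between them. Slc38a1, 44481 bases beyond Slc38a2, measured 0.719 to 2.19 CPM over the 10 livers and had a log2 fold change of 0.31 (95% interval -0.68 to 1.29).

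Slc7a2, at 40862396 to 40922308 on the plus strand of chromosome 8, encodes CAT2, whose liver form carries arginine with low affinity. It measured 182 and 214 CPM in the refed livers and 650, 549 and 771 CPM in the WT fasting livers. The lowest fasting liver lay well above the highest refed liver, and the log2 fold change was 1.78 (SE 0.26, adjusted P = 0.00341). Without refed mouse 1 it was 1.66, with an adjusted P of 0.0538. Slc7a2 overlaps Gm26584, a noncoding gene on the other strand with 611 counts over the 10 livers against 220934 for Slc7a2.

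Slc43a3, at 84936579 to 84958509 on the plus strand of chromosome 2, is grouped with the SLC43 amino acid carriers and is known as a purine nucleobase carrier. It measured 17.6 and 20.8 CPM in the refed livers and 30.0, 44.6 and 79.8 CPM in the WT fasting livers. The groups did not overlap, but the fasting livers spread 2.66-fold among themselves, and the log2 fold change was 1.47 (SE 0.31, adjusted P = 0.0183). WT fasting mouse 3, the highest, also had the highest Nampt (143 CPM) and the highest summed macrophage markers, and their part in the result was not tested. Without it the log2 fold change was 1.03 (adjusted P = 0.0169). The call was lost without refed mouse 1 (1.34, adjusted P = 0.169), without refed mouse 2 (1.59, adjusted P = 0.131) and when only the 2 groups were fitted (1.46, adjusted P = 0.0694).

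**Figure D3:**
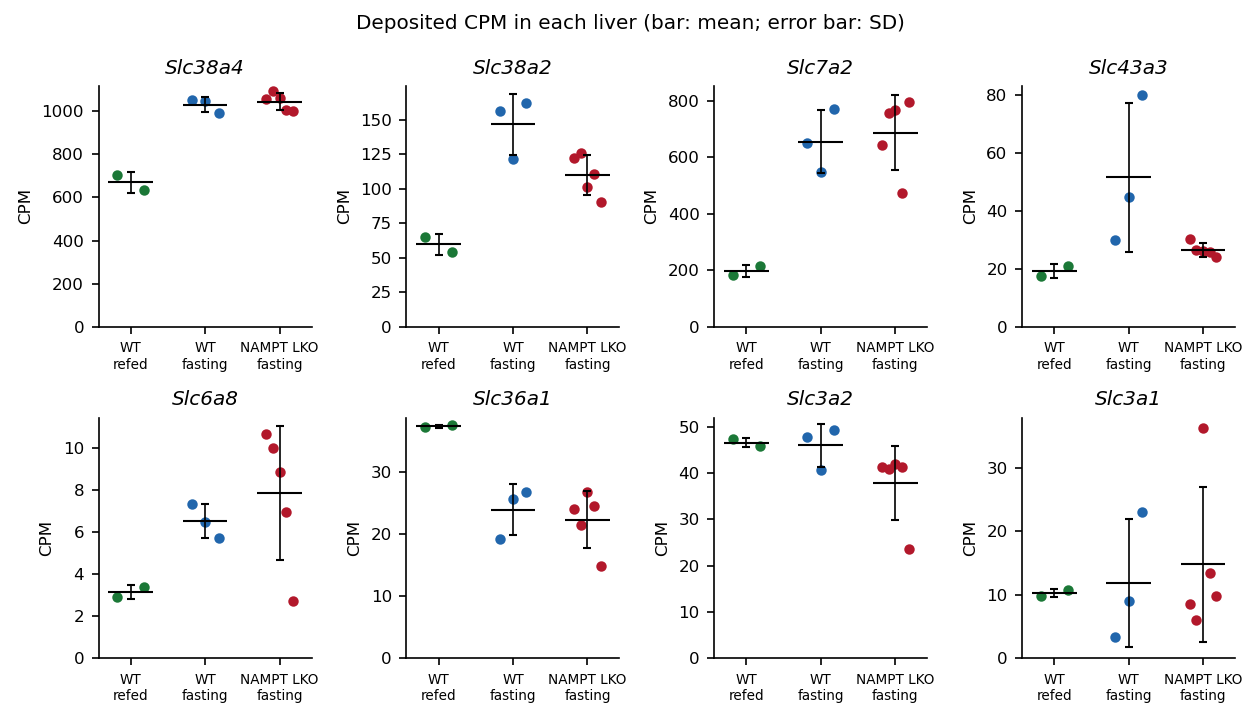
Deposited CPM of 8 genes in each liver, with 1 point per liver, the mean as a horizontal line and the SD as an error bar (n = 2 WT refed, 3 WT fasting and 5 NAMPT LKO fasting), on axes that start at 0. Slc38a4, Slc38a2, Slc7a2 and Slc43a3 are higher in every fasting liver than in the refed livers, Slc36a1 is lower, and Slc3a1 spreads from 3.34 to 36.3 CPM among the fasting livers.

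Promoter windows are shown for the called genes that the RefSeq promoter table (GRCm38.p6) holds. The quasi-likelihood test called Slc36a1 only in NAMPT LKO fasting vs. WT refed livers, where genotype and feeding both differ. Each line gives the 250 bases before an annotated start, 5′ to 3′ on the gene's strand, with matches in capitals. The motifs searched on both strands were the amino acid response element TGATGNAAN, the E-box CACGTG bound by TFEB family factors and others, the cAMP response element TGACGTCA, and its first 5 bases, TGACG, which the full element contains. Of the 31 expressed genes 23 had a window.
Slc38a2, chr15:96699729-96699978, minus strand: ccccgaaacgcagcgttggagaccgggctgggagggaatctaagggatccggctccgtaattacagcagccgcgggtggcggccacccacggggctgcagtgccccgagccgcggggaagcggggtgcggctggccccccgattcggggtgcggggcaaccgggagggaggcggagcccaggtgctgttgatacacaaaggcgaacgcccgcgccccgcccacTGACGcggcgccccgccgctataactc
Slc38a4, second of 3 annotated starts, chr15:97031214-97031463, minus strand: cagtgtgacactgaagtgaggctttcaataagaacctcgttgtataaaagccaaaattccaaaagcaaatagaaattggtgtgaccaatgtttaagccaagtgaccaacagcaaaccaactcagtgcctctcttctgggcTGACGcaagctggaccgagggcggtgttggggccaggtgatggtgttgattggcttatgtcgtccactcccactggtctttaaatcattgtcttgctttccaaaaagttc
Slc36a1, chr11:55204090-55204339, plus strand: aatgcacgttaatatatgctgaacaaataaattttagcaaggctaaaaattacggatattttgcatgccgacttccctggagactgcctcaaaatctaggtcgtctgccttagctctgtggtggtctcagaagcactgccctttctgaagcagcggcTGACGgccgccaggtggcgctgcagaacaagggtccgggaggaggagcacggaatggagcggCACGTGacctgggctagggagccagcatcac
TGACG began 27 bases before the start of Slc38a2, 110 bases before the second start of Slc38a4 and 93 bases before that of Slc36a1, and no match to the 4 motifs was found in the other 2 Slc38a4 windows. CACGTG began 31 bases before the start of Slc36a1. TGACG was in a window of 19.8% of all genes in the table and of 10 of the 23 carriers, and CACGTG in 6.86% and 4 of 23. TGACGTCA was in 1.77% of all genes and in Slc38a6, and TGATGNAAN in 3.89% and in Slc6a21 and Slc7a7. A match describes these letters and not a site in use, and bases outside the windows, such as introns, were not searched.

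The quasi-likelihood test called no carrier lower in WT fasting livers. Slc36a1, a proton-coupled carrier that exports small amino acids from lysosomes, measured 37.1 and 37.5 CPM in the refed livers and 19.2, 25.6 and 26.8 CPM in the WT fasting livers. All 3 fasting livers lay below both refed livers, at a log2 fold change of -0.58 (SE 0.18, adjusted P = 0.0848). It passed with DESeq2 (-0.59, adjusted P = 0.038), with limma's voomWithQualityWeights (-0.60, adjusted P = 0.00548), with each library's GC trend removed (-0.65, adjusted P = 0.0126) and without NAMPT LKO mouse 5 (-0.58, adjusted P = 0.0224). Slc1a4, a neutral amino acid exchanger, measured 3.29 and 3.32 CPM in the refed livers and 1.23, 2.09 and 1.91 CPM in the WT fasting livers, again with no overlap, at a log2 fold change of -0.86 (SE 0.32, adjusted P = 0.133), and was called by voomWithQualityWeights. Slc7a7, a light chain for cationic and neutral amino acids that the same test called, measured 3.75 and 3.20 CPM in the refed livers and 2.09, 1.83 and 3.09 CPM in the WT fasting livers, with a log2 fold change of -0.52 (adjusted P = 0.264 by the quasi-likelihood test). The span of Slc7a7 overlaps that of Oxa1l on the other strand, with 17403 counts over the 10 livers against 1064. What this overlap did to the counts of Slc7a7 was not tested.

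Slc6a8, the creatine carrier, measured 2.92 and 3.39 CPM in the refed livers and 7.35, 6.48 and 5.73 CPM in the WT fasting livers. The groups did not overlap, and the log2 fold change of 1.11 (SE 0.40) had an adjusted P of 0.128. It passed without NAMPT LKO mouse 5 (1.11, adjusted P = 0.0064), with voomWithQualityWeights (1.15, adjusted P = 0.00529), with DESeq2 (1.10, adjusted P = 0.0477) and when only the 2 groups were fitted (1.09, adjusted P = 0.0211).

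Other abundant carriers showed smaller differences. Slc38a3 measured 744 and 752 CPM in the refed livers and 680, 718 and 767 CPM in the WT fasting livers, groups that overlapped, with a log2 fold change of 0.01 (95% interval -0.33 to 0.34). Slc6a13 measured 139 and 152 CPM against 130, 124 and 137 CPM (-0.10, 95% interval -0.52 to 0.32), all fasting livers slightly below in deposited CPM. Divided by TMM factors (1.05 for refed mouse 1, 1.03 for WT fasting mouse 3), its groups overlapped. Slc6a12 measured 51.3 and 61.1 CPM against 60.6, 68.0 and 62.1 CPM (0.24, 95% interval -0.05 to 0.52), with overlap. Slc38a10 measured 123 and 114 CPM against 108, 91.9 and 112 CPM (-0.13, 95% interval -0.48 to 0.21), and Slc1a2 measured 179 and 155 CPM against 195, 182 and 200 CPM (0.26, 95% interval -0.22 to 0.74), both without overlap. The intervals of these 5 genes lie within 1 of 0 on the log2 scale, so that a smaller change in either direction remains possible.

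The heavy chains differed in how far they spread among mice. Slc3a2 measured 47.3 and 45.9 CPM in the refed livers and 47.9, 40.6 and 49.4 CPM in the WT fasting livers, groups that overlapped, and the log2 fold change was 0.04 (95% interval -0.33 to 0.40). Slc3a1 measured 9.81 and 10.7 CPM against 3.34, 9.04 and 23.2 CPM, so the fasting livers lay on both sides of the refed livers. Its log2 fold change was 0.26 (95% interval -1.44 to 1.96) and -0.65 without WT fasting mouse 3. The span of Slc3a1 overlaps that of Prepl on the other strand, with 7650 counts over the 10 livers against 5163. By the paper's methods only unambiguous reads were counted, and whether counting used strand is not stated. What the overlap did to either count was not tested.

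The second comparison, NAMPT LKO fasting vs. WT refed, has the same feeding contrast as the first, with fasted mice of the other genotype, so that genotype and feeding both differ between its groups. It shares the 2 refed livers of the first, so the counts of the 2 comparisons are not independent. Slc7a2, Slc6a8, Slc38a2 and Slc38a4 were higher in the NAMPT LKO fasting livers, by 3.73-fold, 2.59-fold, 1.96-fold and 1.66-fold, and Slc36a1 was lower by 1.59-fold. These were 5 of the 31 genes, against 11.2% of all genes tested (4.65% higher and 6.58% lower), with a median log2 fold change of 0.22 for the 31 and 0.03 for all genes. At an unadjusted P under 0.05, 9 of the 31 and 26.1% of all genes passed, and 10 of the 31 did not overlap between groups (5 higher, 5 lower) against 34.2% of all genes (10.4% higher and 23.9% lower). The exact test, DESeq2 and voomWithQualityWeights called 5, 5 and 11 of the 31, against 12.9%, 16.7% and 31.8% of all genes.

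Slc7a2 measured 643, 756, 768, 473 and 797 CPM in the 5 NAMPT LKO fasting livers, all above 182 and 214 CPM in the refed livers, a log2 fold change of 1.90 (SE 0.25, adjusted P = 0.00119) that was called in each of the 21 fits. Slc38a2 measured 122, 126, 101, 111 and 90.5 CPM, all above 65.0 and 54.4 CPM, a log2 fold change of 0.97 (SE 0.14, adjusted P = 0.00231). Slc38a4 measured 1057, 1093, 1062, 1007 and 1003 CPM, a narrow band above 705 and 635 CPM, with a log2 fold change of 0.74 (SE 0.12, adjusted P = 0.00374). Both Slc38 calls were lost only without refed mouse 2, at 0.84 (adjusted P = 0.0651) for Slc38a2 and 0.66 (adjusted P = 0.0926) for Slc38a4.

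Slc36a1 measured 24.0, 21.5, 26.7, 24.4 and 14.8 CPM in the NAMPT LKO fasting livers, all below 37.1 and 37.5 CPM. Its log2 fold change was -0.67 (SE 0.17, adjusted P = 0.028), and the call was lost without refed mouse 1 (adjusted P = 0.159), refed mouse 2 (adjusted P = 0.207) or NAMPT LKO mouse 2 (adjusted P = 0.0601), at log2 fold changes of -0.69, -0.66 and -0.66. Slc6a8 measured 6.97 to 10.7 CPM in mice 1 to 4 and 2.73 CPM in mouse 5. Thus 4 livers lay above both refed livers, and mouse 5 lay below them in deposited CPM. Divided by TMM factors (0.854 for mouse 5, 1.05 and 1.04 for the refed livers), Slc6a8 in mouse 5 lay between the refed livers. Its log2 fold change of 1.37 (SE 0.38, adjusted P = 0.0418) was 1.57 without mouse 5 (adjusted P = 0.000905), and it was called in 11 of 21 fits, with log2 fold changes of 1.25 to 1.57 and adjusted P of 0.000356 to 0.276 over these. Slc43a3, called in WT fasting livers, measured 30.1, 26.4, 26.0, 25.7 and 23.9 CPM, all above 17.6 and 20.8 CPM, but with a log2 fold change of 0.55 (SE 0.28, adjusted P = 0.247). It was called in 2 of 21 fits, with the 2 groups alone (0.54, adjusted P = 0.0344) and without both NAMPT LKO mouse 5 and WT fasting mouse 3 (0.54, adjusted P = 0.0418). Among the rest, Slc43a1, a carrier of large neutral amino acids, had -0.57 (SE 0.19, adjusted P = 0.0859), and Slc1a2 had 0.54 (SE 0.21, adjusted P = 0.123) and was called without mouse 5.

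**Figure D4:**
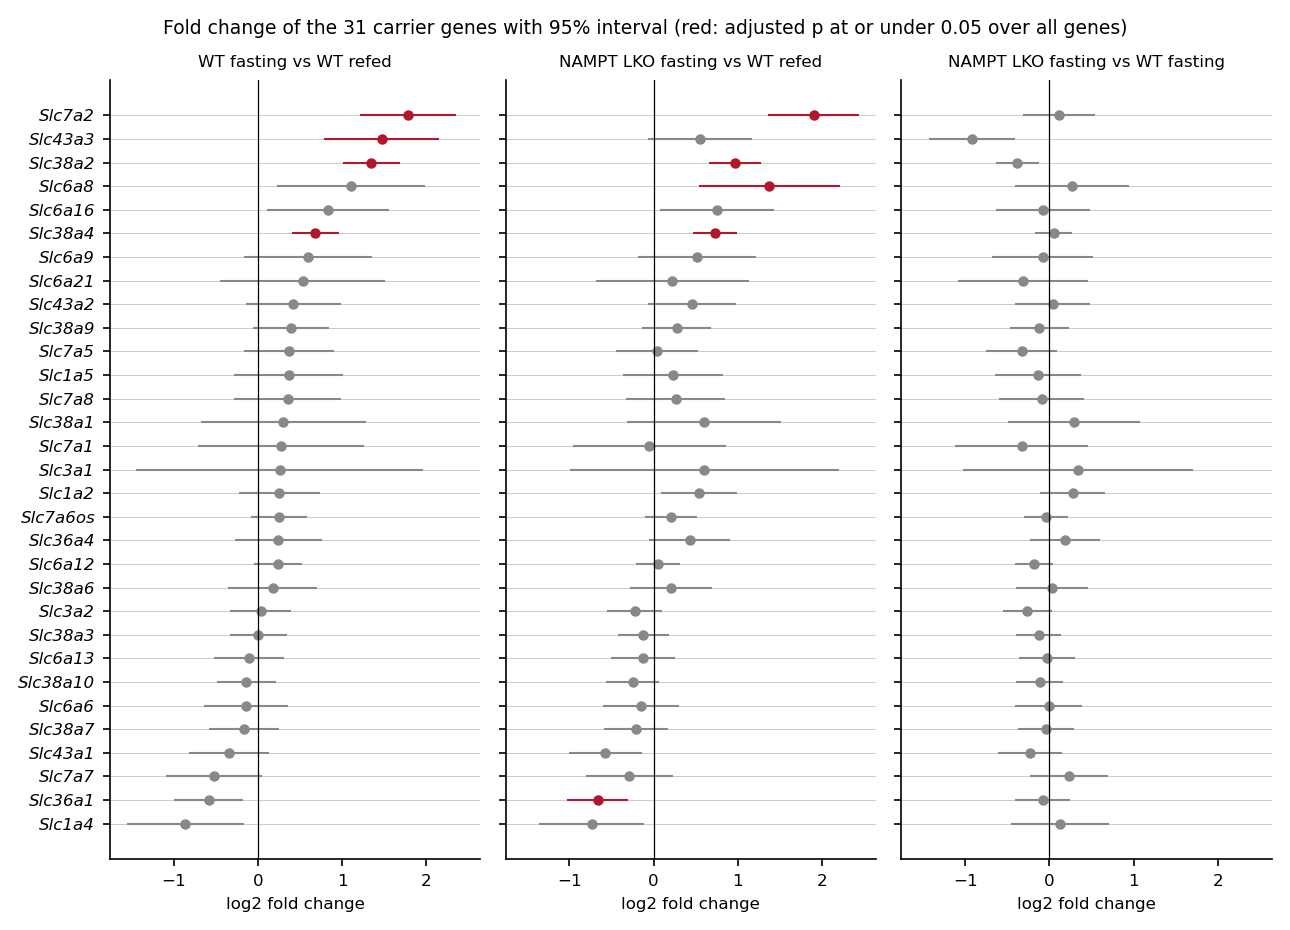
Log2 fold change of the 31 expressed genes with its 95% interval in each comparison, ordered by WT fasting vs. WT refed. Red marks an adjusted P at or under 0.05 over all 13444 genes: 4 genes in the first panel, 5 in the second and 0 in the third.

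The third comparison, NAMPT LKO fasting vs. WT fasting, asks what loss of hepatocyte Nampt changes in fasted mice. None of the 31 genes was called by edgeR's quasi-likelihood test, against 0.00744% of all genes tested, which is Nampt alone. The count was also 0 with edgeR's exact test, DESeq2 and voomWithQualityWeights, which called 0.179%, 0.156% and 0.00744% of all genes. In deposited CPM the groups overlapped for all 31 genes, against 3.56% of all genes that did not overlap (1.65% higher and 1.91% lower). The median log2 fold change was -0.08 (all genes 0.00). Below 0 were 20 of the 31 genes and 6713 of all 13444. At an unadjusted P under 0.05, 2 of the 31 genes and 6.03% of all genes passed.

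Those 2 were Slc43a3 and Slc38a2, both lower in the NAMPT LKO livers. Slc43a3 measured 23.9 to 30.1 CPM in the 5 NAMPT LKO livers against 30.0, 44.6 and 79.8 CPM in the WT fasting livers, with 1 NAMPT LKO liver just above the lowest WT liver. Its log2 fold change was -0.92 (SE 0.23, adjusted P = 0.761, edgeR quasi-likelihood test) and -0.49 without WT fasting mouse 3 (adjusted P = 0.99). Slc38a2 measured 90.5 to 126 CPM against 121, 156 and 162 CPM, with 2 NAMPT LKO livers above the lowest WT liver, at a log2 fold change of -0.38 (SE 0.12, adjusted P = 0.761). Over the 23 fits made it ranged from -0.47 to -0.28, with adjusted P of 0.354 to 0.99. Next by P was the heavy chain Slc3a2, at 41.2, 40.9, 42.1, 41.3 and 23.6 CPM against 47.9, 40.6 and 49.4 CPM. Its log2 fold change of -0.26 (SE 0.13, adjusted P = 0.837) was -0.17 without NAMPT LKO mouse 5, whose value stood far below the other 4.

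Slc38a4 and Slc7a2, which were higher in WT fasting than in WT refed livers, were not called between the fasting groups. Slc38a4 had a log2 fold change of 0.05 (95% interval -0.17 to 0.27) and Slc7a2 of 0.12 (95% interval -0.31 to 0.54). Slc36a1 had -0.08 (95% interval -0.41 to 0.25) and Slc6a8 had 0.27 (95% interval -0.41 to 0.95). Slc38a3 measured 819, 629, 686, 653 and 469 CPM in the NAMPT LKO livers (-0.13, 95% interval -0.40 to 0.14), and Slc6a13 measured 159, 127, 145, 127 and 75.7 CPM (-0.03, 95% interval -0.36 to 0.31). Slc6a12 measured 57.3, 50.7, 62.3, 55.9 and 47.7 CPM (-0.19, 95% interval -0.41 to 0.04), Slc38a10 measured 98.2, 99.3, 120, 91.2 and 64.4 CPM (-0.11, 95% interval -0.39 to 0.16), and Slc1a2 measured 194, 225, 206, 211 and 287 CPM (0.28, 95% interval -0.11 to 0.66). For Slc38a3, Slc6a13, Slc6a12 and Slc38a10 mouse 5 was the lowest of the 10 livers, and for Slc1a2 it was the highest. Slc3a1 measured 8.53, 5.94, 36.3, 13.4 and 9.82 CPM, and its interval, -1.02 to 1.71, was the widest of the 31 genes.

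Spread among mice differed widely between the carriers. Among the 5 NAMPT LKO livers the highest value was 1.09 times the lowest for Slc38a4 and 6.11 times for Slc3a1, with a median of 1.78 over the 31 genes and 1.30 without mouse 5. Among the 3 WT fasting livers it was 1.06 times for Slc38a4 and 6.93 times for Slc3a1. Slc3a2 ranged over 1.03 times among the 4 NAMPT LKO livers without mouse 5. Mouse 5 was the lowest library for 15 of the 31 genes, or for 40.7% of all genes, and these 15 had a median GC content of 54.8% against 49.2% for the other 16. Its median deviation from the gene means was -0.39 on the log2 scale, against -0.15 to 0.16 in the other 9 livers.

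**Figure D5:**
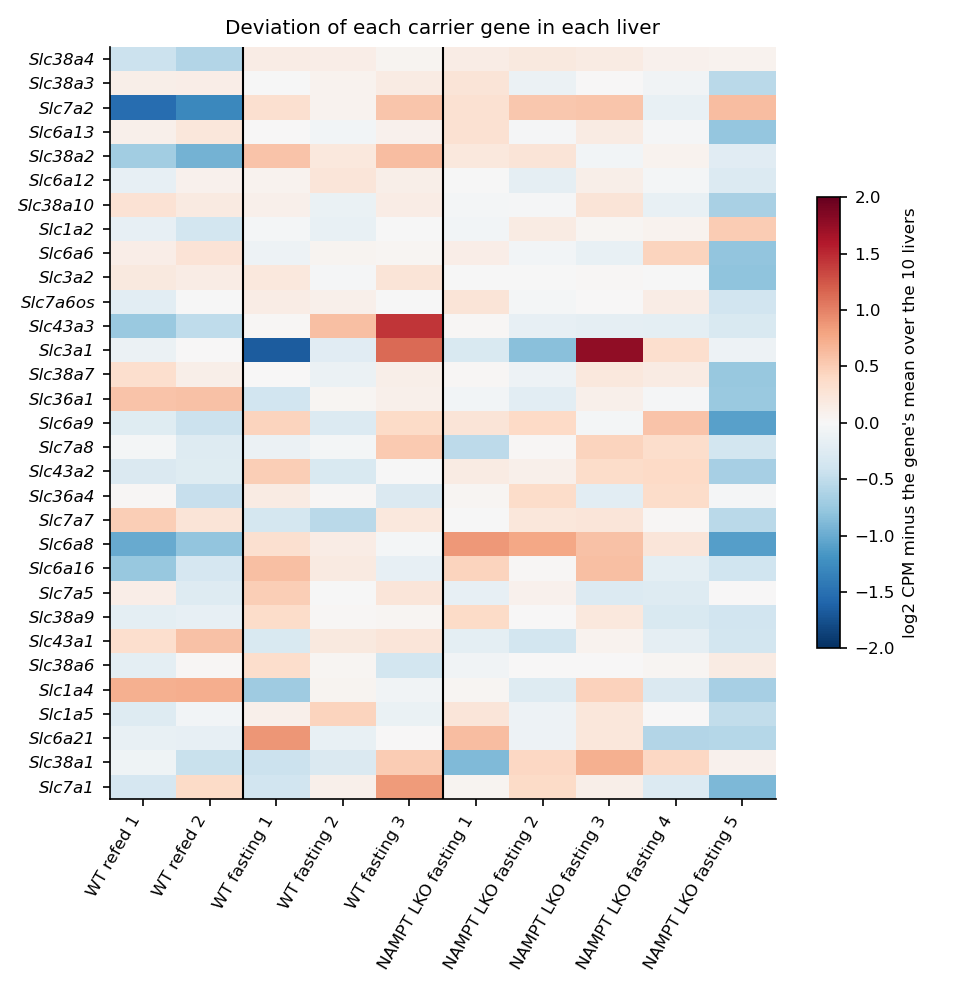
Log2 CPM of each of the 31 expressed genes in each liver, minus the gene's mean over the 10 livers, ordered by mean RPKM, with lines between the groups. The 2 refed columns are low for Slc7a2, Slc38a2, Slc38a4 and Slc6a8 and high for Slc36a1 and Slc1a4, the NAMPT LKO mouse 5 column is low for most genes, and Slc3a1 varies within each fasting group.

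Genes that act beside these carriers were read from lists, against 7.04% of all genes called, and 22.3% at an unadjusted P under 0.05, in WT fasting vs. WT refed livers. Of 10 tested carriers of amino acids and peptides in other families, 2 were higher in WT fasting than in WT refed livers (edgeR quasi-likelihood test). These were the peptide carriers Slc15a2 (log2 fold change 3.67, SE 0.94, adjusted P = 0.0396) and Slc15a4 of the lysosome (0.89, SE 0.21, adjusted P = 0.0278), with a list median of 0.50. Slc15a2 measured 0.190 and 0.740 CPM in the refed livers and 4.44 to 6.37 CPM in the WT fasting livers. A list of 23 genes of lysosomal amino acid sensing also held parts of mTORC1 itself, such as Mtor, Rptor and Mlst8. Of the 23, 2 were higher in WT fasting livers, and the list median was -0.08. These were the leucine sensor Sesn2 (1.77, SE 0.39, adjusted P = 0.0225) and Flcn, which acts on the Rag GTPases (1.37, SE 0.27, adjusted P = 0.0141). Of 17 ATF4 and amino acid response genes, 3 rose and 2 fell, with a list median of 0.17. The 3 largest differences were those of the transcription factor gene Cebpb, which was higher (1.48, SE 0.31, adjusted P = 0.0168), Ddit3, which encodes the stress factor CHOP and was lower (-1.16, SE 0.30, adjusted P = 0.0412), and the pseudokinase gene Trib3, which was higher (1.11, SE 0.26, adjusted P = 0.0273). Of 22 amino acid catabolism and urea cycle genes 0 passed the quasi-likelihood test of edgeR (6 had an unadjusted P under 0.05), with a list median of 0.21.

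In NAMPT LKO fasting vs. WT refed livers, where 11.2% of all genes were called, 2 of the 10 other carriers were higher, Slc15a2 (3.13) and the lysosomal sialic acid carrier Slc17a5 (0.68). Of the sensing list 3 of 23 genes were higher, among them Sesn2 (1.59) and Flcn (0.94), and the mTOR partner gene Mlst8 was lower (-1.43). Of the ATF4 genes 2 of 17 were higher and 2 lower, with Ddit3 at -1.30, Psph of serine synthesis at -1.13 and Cebpb at 1.01. Of the catabolism genes 3 of 22 were higher, the transaminase gene Got1 (1.18), the serine dehydratase gene Sds (0.90) and the tryptophan dioxygenase gene Tdo2 (0.66). Between the fasting groups 0 genes of the 4 lists were called by the quasi-likelihood test of edgeR, and 0, 3, 2 and 1 genes had an unadjusted P under 0.05, against 6.03% of all genes. In the same order, 7 of 10, 15 of 23, 13 of 17 and 16 of 22 genes lay below 0, against 6713 of all 13444. The list medians were -0.15, -0.05, -0.14 and -0.13, against 0.00 for all genes.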

How the data were processed

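Liver RNA-seq libraries of 10 mice were analysed (2 WT refed, 3 WT fasting and 5 NAMPT LKO fasting). The authors aligned single-end reads with STAR and assigned uniquely aligned reads to Ensembl genes with featureCounts (versions 2.5.1a and 1.4.6-p5 in the submitters' processing notes, others in the paper). Whether counting used strand is not given in the sources used here. Each deposited table holds raw counts, CPM and RPKM per gene. The deposited counts were used for tests, the deposited CPM for levels and the threshold, and the deposited RPKM to compare genes. Symbols, biotypes and coordinates came from the GENCODE annotation of GRCm38 and promoter windows from RefSeq.

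Genes had to exceed 1 CPM in 1 or more libraries, 4 rRNA genes were left out, and the remaining 13444 were tested by edgeR 4.0.16 (glmQLFit and glmQLFTest, R 4.3.3) on TMM-normalised counts, with all 10 libraries in one fit, P adjusted by Benjamini-Hochberg over all 13444 genes, and calls at an adjusted P at or under 0.05. SE is the log2 fold change over the square root of F. Groups overlap when their ranges of deposited CPM do. This CPM is not TMM-scaled (factors 0.854 in NAMPT LKO mouse 5 and 0.964 to 1.05 in the others). Close overlaps or separations, and the counts of them, can therefore differ on the scale of the tests. The rule for single genes took those called in any comparison, the 8 highest by mean RPKM, the 3 of lowest P between the fasting groups, both heavy chains and, per gene list, up to 3 called genes with the largest change. Slc1a4, Slc38a1, Slc43a1 and Slc7a7 were added after their values were seen. The members and lists were chosen with earlier results of these data known.

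Alternatives were DESeq2 1.42.0, limma 3.58.1 (voomWithQualityWeights), the exact test of edgeR, other scalings and filters, a loess removal of each library's GC trend (span 0.5), libraries left out and a replicate block. On simulated counts for 13444 genes, the test recovered 165 of 200 changed genes in NAMPT LKO fasting vs. WT fasting (70 of 100 at a log2 change of 1) and 122 of 200 in WT fasting vs. WT refed (35 of 100 at 1), with 6 unchanged genes called in each. The simulation planted no log2 change under 1 and held no GC trend such as that of NAMPT LKO mouse 5. It therefore does not give the recovery of smaller changes or in such a library. No replicates were identical. Nothing in the labels says that replicates come from separate cages or days, so P-values measure only the spread between these mice. Same-numbered NAMPT LKO and WT fasting libraries deviated together at r of 0.076 to 0.162, and differently numbered ones had r of -0.117 to -0.0118. The labels name no pairs, so the numbers were not taken as pairs in the main fit.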

Additional observations from a re-analysis of the deposited data

Results flagged for a closer look

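Among the 5 NAMPT LKO fasting livers, the 13 named carriers were examined for a liver far from the other 4, by its gap to the nearest value over the whole range (limit 0.71). Slc3a1, the rBAT heavy chain, stood out in mouse 3, at 36.3 CPM against 5.94 to 13.4 CPM in the others (gap 0.756). Slc3a2, the 4F2 heavy chain, stood out in mouse 5, at 23.6 CPM against 40.9 to 42.1 CPM in the others (gap 0.939). Chance flags about 1 in 20 such groups, or 0.65 of 13. Mouse 5 is also the library with the highest mitochondrial share, 21.1%, and was the lowest of the 10 for 40.7% of the genes tested. Its CPM ran lower with higher GC content (Spearman rho -0.587), and the GC content of Slc3a2 is 54.8%. The part of these traits of the library in the value was not tested.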

How the results depend on the processing

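In WT fasting vs. WT refed livers, the 4 calls became 9 with voomWithQualityWeights, 8 without both NAMPT LKO mouse 5 and WT fasting mouse 3 (an alternative chosen after seeing the data), 8 at an unadjusted P under 0.05, and 1 to 6 with 1 library left out (1 without refed mouse 1 and 2 without refed mouse 2). In NAMPT LKO fasting vs. WT refed livers, the 5 calls became 11, 9, 9 and 1 to 7 in the same order (1 without refed mouse 2, 3 without refed mouse 1 and 3 without NAMPT LKO mouse 2), and 2 at a log2 fold change of at least 1. Without 1 refed mouse the other is assumed to vary like the other groups. Between the fasting groups, 0 calls became 2 at an unadjusted P under 0.05 and stayed at 0 with 1 library left out. Scaling by library size alone moved the split over all genes from 360 of 946 higher to 252 of 979 in WT fasting vs. WT refed livers and from 625 of 1510 to 371 of 1422 in NAMPT LKO fasting vs. WT refed livers.

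With a replicate block over the mice numbered 1 to 3, Nampt fell by 2.78 on the log2 scale (adjusted P = 0.099), against 2.87 for the same libraries unpaired (-2.87, adjusted P = 0.264), and no gene was called in either. Each library correlated best with its own number, a hint from the data and not the design. In these libraries, Slc38a10 (0.00076 with the block, 0.0035 without) and Slc6a13 (0.11 with and without) turned sign between the fasting groups, and the block changed no other call or sign of the named genes. Without single libraries Nampt ranged from -3.03 to -2.37.

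Other signs turned only in differences that were not called. In WT fasting vs. WT refed livers, Slc38a3 was -0.058 by library size, -0.0019 with filterByExpr, -0.0087 with no filter, -0.0095 with the 2 groups alone, -0.057 with the GC trend removed, -0.019 without both libraries and -0.028 to 0.046 with 1 library left out. Slc3a1 was -0.38 with voomWithQualityWeights, -0.65 without both libraries and -0.65 to 0.69 with 1 left out, and Slc3a2 was -0.024 by library size, -0.022 with the GC trend removed and -0.0073 to 0.092 with 1 left out. Between the fasting groups, Slc36a1 was 0.071 without both libraries and -0.22 to 0.0062 with 1 left out, Slc38a4 was -0.0014 with voomWithQualityWeights, -0.0099 with the GC trend removed and -0.028 without both libraries, and Slc6a13 was 0.046, 0.031 and 0.099 in these settings and -0.11 to 0.079 with 1 left out. Slc3a1 was -0.26 to 1.24 and Slc7a2 -0.0072 to 0.23 with 1 left out. The cause was not tested. Of the alternative values for the named genes, 600 kept direction and side of the threshold, 12 passed it newly, 21 no longer passed it and 33 turned sign.

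The WT refed group has 2 livers, and detection by expression level was not tested.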
